A study of Nicotiana tabacum with 8 samples.

Results

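A set of 25 genes responded to salt in opposite directions in the leaves of 2 tobacco genotypes, in each of 2 independent experiments. In 19 of them the level was lower under salt stress in the wild type (WT) and higher in OE-2, a line that overexpresses the calcium sensor gene *NtCBL5A*. In the other 6 it was higher under salt stress in WT and lower in OE-2. The genes were chosen from the values themselves. Each needed a ratio of salt to control below 0.67 in one genotype and above 1.5 in the other, in both experiments, and in the same direction each time. The ratios were taken within each experiment from FPKM values (a read level scaled by gene length and by library) after 0.1 had been added. A gene also needed at least 50 read counts in at least 4 of the 8 libraries and a mean below 200 FPKM in unstressed WT leaves. Genes that the study names with an identifier, and genes with a 3-fold gap between all libraries of the 2 genotypes, were to be left out, but 0 genes that met the ratios fell under either exclusion. Of 81378 genes in the table, 29042 passed the limits on counts and on FPKM, and the 25 came from these.

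The libraries formed 4 groups. C-WT and S-WT were WT plants of *Nicotiana tabacum* cultivar Zhongyan 100 under control conditions and under 100 mM NaCl, and C-OE2 and S-OE2 were plants of OE-2 under the same conditions. OE-2 is a single homozygous line of the same cultivar that carries *NtCBL5A* in the vector pCHF3 for constitutive expression, so that all transgenic values come from 1 insertion line. Each group had 1 library in each experiment, made from the fifth leaf blades of 4 pooled plants, without main veins, at about 34 days after germination and 4 days after the start of treatment.

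Calcineurin B-like (CBL) proteins bind calcium and pass the signal on by binding CBL-interacting protein kinases (CIPKs). In *Arabidopsis*, the pair of SOS3, which is a CBL protein, and SOS2, which is a CIPK, activates a sodium/proton antiporter of the plasma membrane, and this pathway limits sodium in the cytosol under salt stress. Tobacco is an allotetraploid, so many of its genes exist as similar copies from both parental genomes. The table gives identifiers without descriptions, and 0 of its identifiers matched the gene table of the RefSeq reference. The 25 genes are therefore named here only by identifier and by position in the Nitab-v4.5 assembly, and no function is given for them.

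Between 18674594 and 31672013 reads per library were counted on genes. In no group were the counts of the 2 libraries within counting error of each other (chi-square divided by its degrees of freedom, 64.2 to 131), so each group holds 2 separate samples. All 12 photosynthesis genes that the study names with an identifier were above 0 in all 8 libraries, at 81.0 to 21005 FPKM. These genes encode parts of the photosystems, their antennae and chloroplast enzymes, so the libraries held RNA of green tissue. The series has no other tissue, so the values cannot tell leaf blade from other green parts. These 12 genes took 2.05% to 3.36% of the counts in 6 libraries and 1.40% and 1.14% in the S-OE2 libraries. The study's 12 defense genes took 2.76% and 2.09% of the counts in S-OE2 and at most 0.118% in the other libraries. The 2 S-OE2 libraries thus stood apart from the other 6 in both lists, and the part of this in the values of the 25 genes was not tested. In pooled leaf RNA, fewer cells of a type and less RNA per cell cannot be told apart. The identifier of *NtCBL5A* in the table is not given in the sources used here, so the level of the transgene was not analysed.

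Opposite directions were rare among the genes that responded in both experiments. By the same ratio limits, 914 genes were lower under salt stress in WT in both experiments, and of these 542 were also lower in OE-2, 353 met neither limit in OE-2 and 19 (2.08%) were higher. Of the 694 genes that were higher under salt stress in WT in both experiments, 289 were also higher in OE-2, 399 met neither limit and 6 (0.865%) were lower. Seen from OE-2, the 19 genes were 1.13% of 1677 genes with higher levels and the 6 genes were 0.172% of 3492 genes with lower levels. As shares of the 29042 genes past the limits, the members made up 0.0654% and 0.0207%. In the plot of both responses, the bulk of genes lay along an axis that runs from lower in both genotypes to higher in both.

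**Figure D1:**
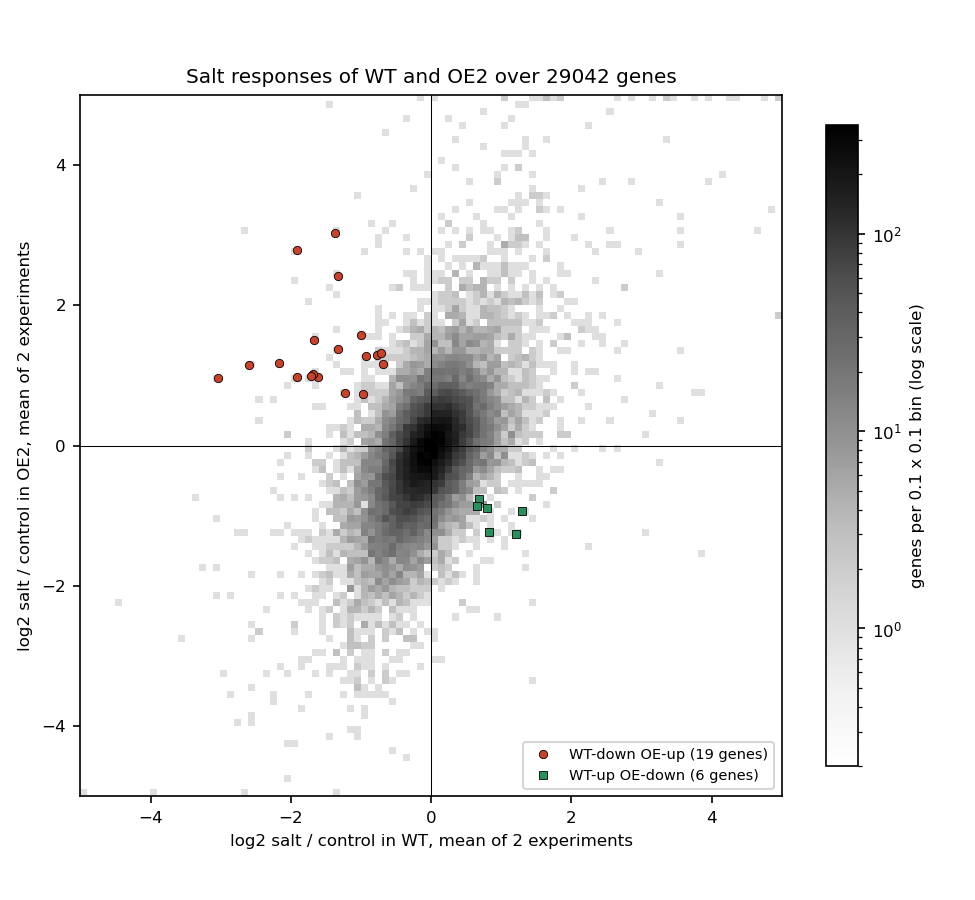
Log2 ratio of salt to control in WT (horizontal) against that in OE-2 (vertical), each the mean of 2 experiments, over 29042 genes counted in grey bins, with 29 genes beyond the axes drawn at the edge. The 19 genes lower in WT and higher in OE-2 (red circles) lie in the upper left quadrant, and the 6 genes of the reverse pattern (green squares) lie in the lower right quadrant.

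For the 19 genes lower in WT and higher in OE-2, the median ratio of S-WT to C-WT was 0.457 in Experiment 1 and 0.303 in Experiment 2. The median ratio of S-OE2 to C-OE2 was 2.37 and 2.18. For the 6 genes of the reverse pattern, the median ratios were 1.68 and 1.90 in WT and 0.460 and 0.634 in OE-2. These values chose the genes and are given as a description. The median level over all libraries was 14.1 FPKM for the 19 genes and 5.25 FPKM for the 6 genes. Raw counts in single libraries ran from 2 to 12393 and from 9 to 172.

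**Figure D2:**
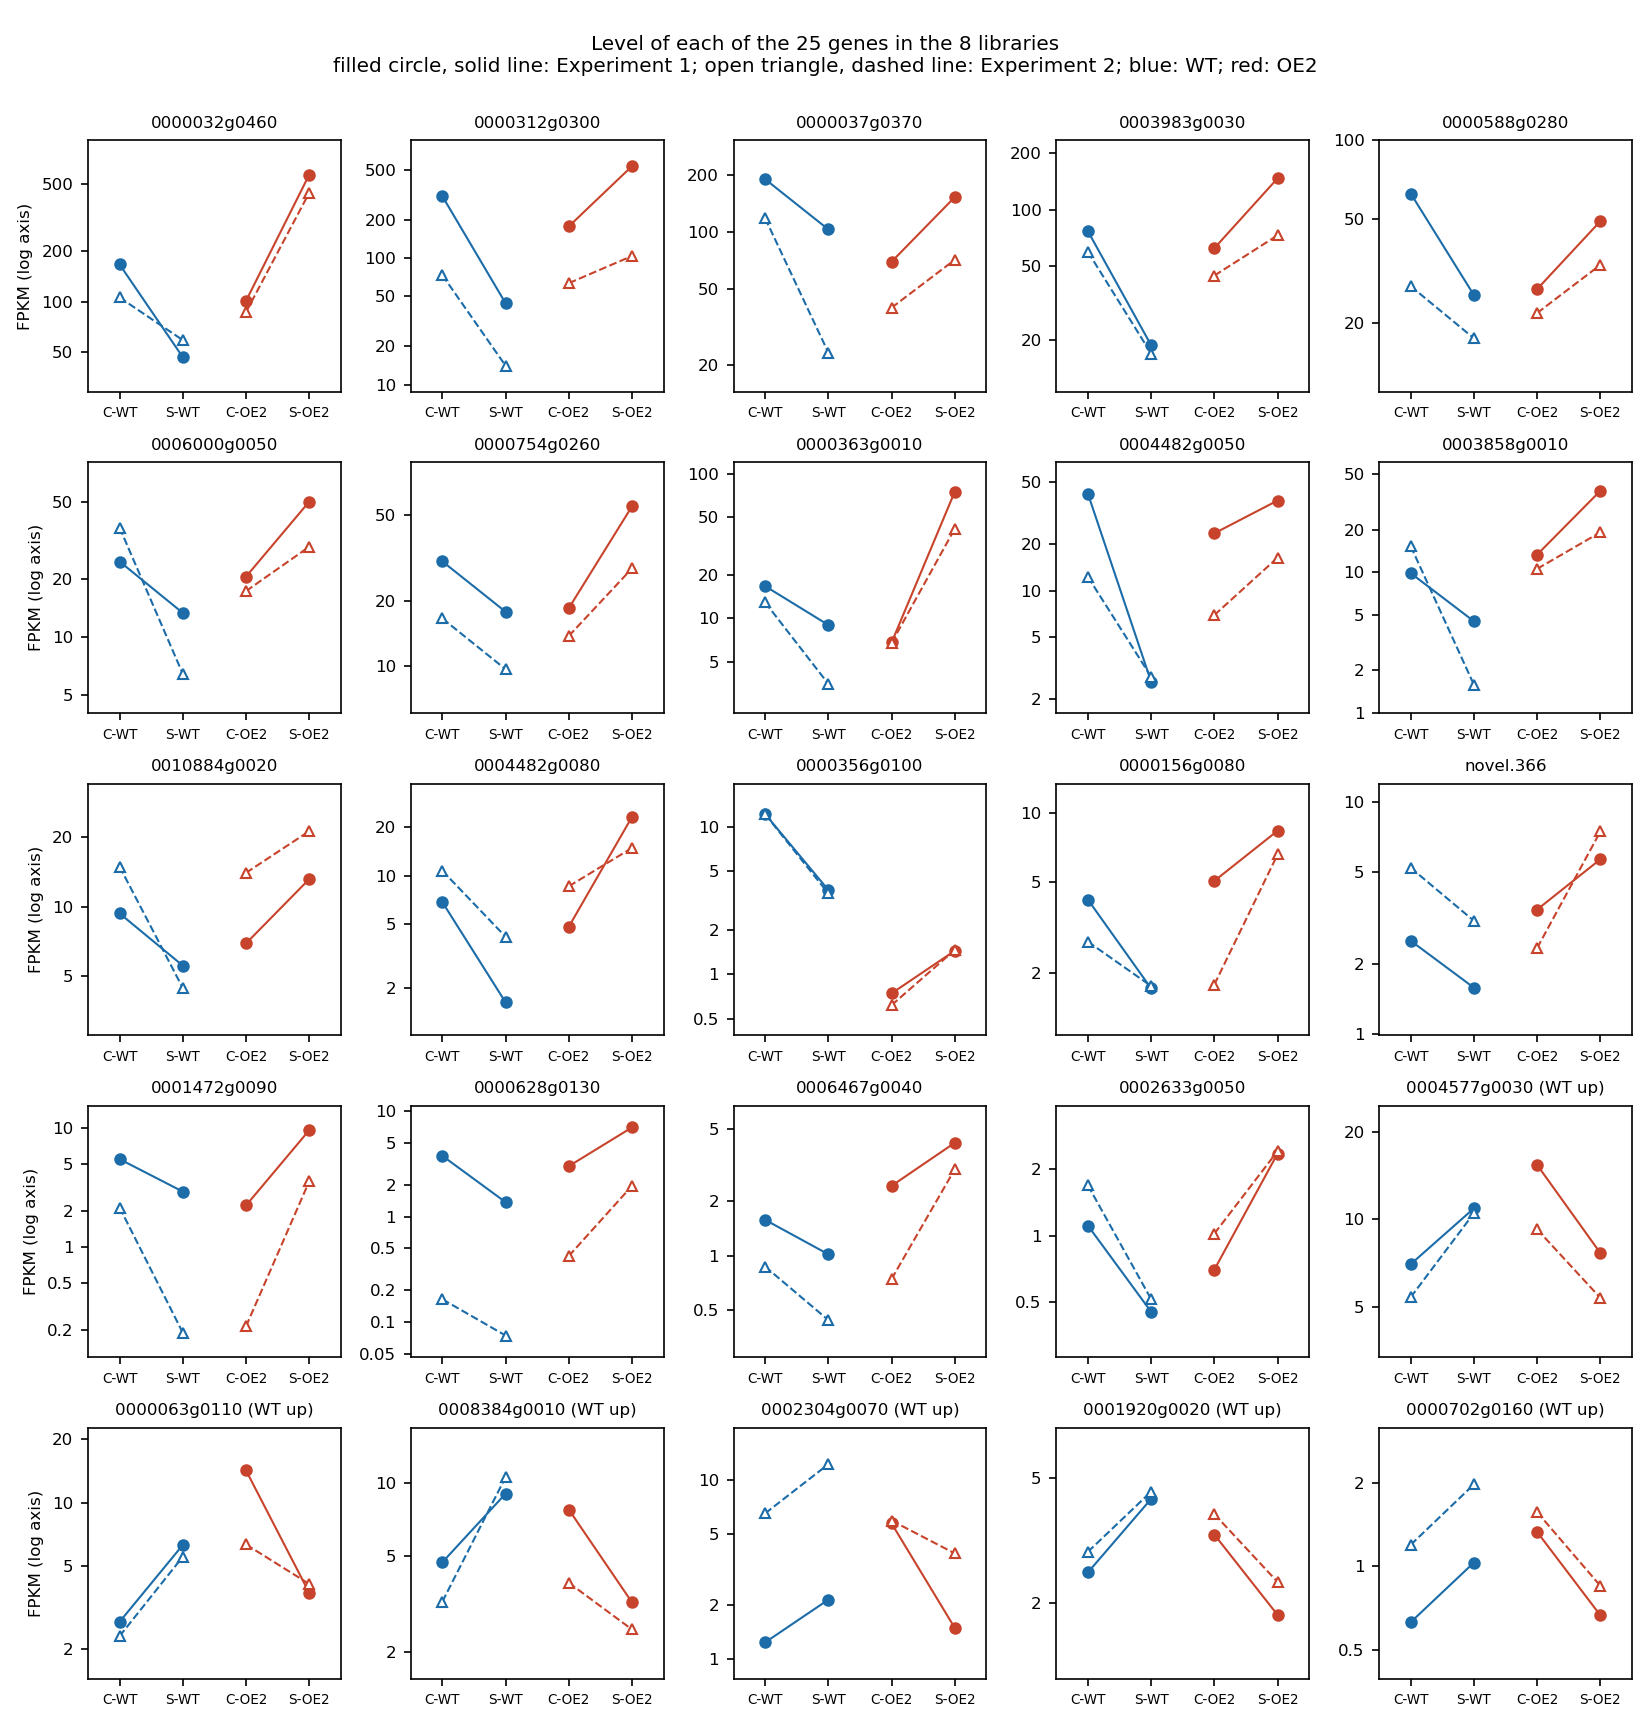
FPKM of each of the 25 genes (log axes, 1 panel a gene) in the 4 groups, with Experiment 1 as filled circles and Experiment 2 as open triangles, WT in blue and OE-2 in red. Lines join control and salt within an experiment, and in the 19 genes without the mark "WT up" the blue lines slope down and the red lines slope up.

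The rule sets S-WT below C-WT and S-OE2 above C-OE2 within each experiment for the 19 genes, and the reverse for the 6. The library orders given here and below are thus partly fixed by it. Their shares over all genes were not counted, so they only describe each gene. In 5 of the 19 genes, both S-OE2 libraries were above and both S-WT libraries below all other libraries. In what follows, pairs of values give Experiment 1 first. Nitab4.5_0000032g0460, 888 bases long and from 2344079 to 2344966 on the minus strand of its scaffold, had the highest mean level of the 25 genes. It stood at 167 and 106 FPKM in C-WT, 46.8 and 59.2 in S-WT, 101 and 86.8 in C-OE2, and 569 and 444 in S-OE2. Its ratios of salt to control were 0.281 and 0.559 in WT and 5.62 and 5.11 in OE-2, so that S-OE2 was 12.1-fold and 7.5-fold above S-WT, although C-OE2 was below C-WT in both experiments. Nitab4.5_0003858g0010, 1073 bases long and from 17286 to 19459 on the plus strand of its scaffold, had 9.87 and 15.4 FPKM in C-WT, 4.48 and 1.58 in S-WT, 13.4 and 10.6 in C-OE2, and 38.2 and 19.3 in S-OE2. With ratios of 0.459 and 0.109 in WT and 2.84 and 1.81 in OE-2, its S-WT libraries were far below the C-WT libraries, most of all in Experiment 2, where the S-WT library held 30 counts. Nitab4.5_0002633g0050, 2952 bases long and from 121310 to 134357 on the minus strand of its scaffold, was a gene of low level at 1.11 and 1.69 FPKM in C-WT, 0.453 and 0.517 in S-WT, 0.703 and 1.02 in C-OE2, and 2.35 and 2.41 in S-OE2. All 4 of its ratios (0.457 and 0.345 in WT and 3.05 and 2.24 in OE-2) also passed the stricter limits of 2 and 0.5, and it was the single gene of the 25 to do so. Its counts were low, from 22 to 170.

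Nitab4.5_0004482g0080, 447 bases long and from 169989 to 170435 on the minus strand of its scaffold, had 6.84 and 10.7 FPKM in C-WT, 1.63 and 4.17 in S-WT, 4.81 and 8.59 in C-OE2, and 23.2 and 14.9 in S-OE2. The ratios were 0.25 and 0.395 in WT and 4.74 and 1.72 in OE-2, and S-OE2 exceeded S-WT 13.4-fold in Experiment 1 and 3.5-fold in Experiment 2. The gene rests on 12 to 254 counts per library, and its S-WT and S-OE2 libraries were apart from all others. Nitab4.5_0000156g0080, 1383 bases long and from 601641 to 603254 on the plus strand of its scaffold, had 4.18 and 2.74 FPKM in C-WT, 1.71 and 1.76 in S-WT, 5.06 and 1.78 in C-OE2, and 8.37 and 6.6 in S-OE2. Its S-WT libraries were lowest by a small margin, since C-OE2 in Experiment 2, at 1.78 FPKM, was close to both. The ratios were 0.423 and 0.653 in WT and 1.64 and 3.55 in OE-2.

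In 3 further genes the S-OE2 libraries were above all others, but the S-WT libraries were not below all others. Nitab4.5_0000363g0010, 759 bases long and from 64183 to 65138 on the minus strand of its scaffold, had the largest OE-2 responses of the genes with at least 40 counts in every library. It had 16.7 and 12.9 FPKM in C-WT, 8.97 and 3.5 in S-WT, 6.78 and 6.74 in C-OE2, and 75.6 and 41.8 in S-OE2. The ratios in OE-2 were 11 and 6.13 against 0.540 and 0.277 in WT, and both C-OE2 libraries were below both C-WT libraries. Nitab4.5_0006467g0040, 4365 bases long and from 137748 to 148216 on the minus strand of its scaffold, the longest of the 25 genes, had 1.58 and 0.869 FPKM in C-WT, 1.02 and 0.44 in S-WT, 2.43 and 0.743 in C-OE2, and 4.2 and 3.0 in S-OE2. Its C-WT and S-WT libraries overlapped, and its ratio in WT in Experiment 1 (0.666) lay just inside the limit. A gene model from the authors' own assembly, 1340 bases long and from 60537 to 62041 on the minus strand of scaffold Nitab4.5_0000125, had 2.53 and 5.2 FPKM in C-WT, 1.59 and 3.08 in S-WT, 3.44 and 2.35 in C-OE2, and 5.66 and 7.45 in S-OE2. WT overlapped here too, because every WT value of Experiment 2 was above the C-WT value of Experiment 1. On the opposite strand, another assembled gene model overlaps it by 279 bases. That model had 350 counts over all libraries against 799, and without knowing whether strand was used in counting, their reads cannot be told apart.

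In 5 genes the S-WT libraries were below all others while the S-OE2 libraries were not above all others. Nitab4.5_0000312g0300, 393 bases long and from 874008 to 874400 on the minus strand of its scaffold, had 309 and 73.3 FPKM in C-WT, 43.9 and 14.1 in S-WT, 178 and 63.4 in C-OE2, and 534 and 104 in S-OE2. Its level was much lower in Experiment 2 in all 4 groups, and its ratios were 0.143 and 0.193 in WT and 3.0 and 1.64 in OE-2. Its C-OE2 and S-OE2 libraries overlapped across experiments, whereas the C-WT and S-WT libraries did not. Nitab4.5_0003983g0030, 456 bases long and from 247798 to 248253 on the plus strand of its scaffold, had 76.4 and 59.2 FPKM in C-WT, 18.7 and 16.8 in S-WT, 62 and 44.2 in C-OE2, and 147 and 72.7 in S-OE2. Control and salt libraries were apart within each genotype, and the ratios were 0.245 and 0.286 in WT and 2.37 and 1.64 in OE-2. Nitab4.5_0006000g0050, 333 bases long and from 19935 to 21177 on the plus strand of its scaffold, had 24.6 and 36.8 FPKM in C-WT, 13.3 and 6.45 in S-WT, 20.5 and 17.3 in C-OE2, and 50.2 and 29.3 in S-OE2. Its WT response was stronger in Experiment 2, with a ratio of 0.177 against 0.543 in Experiment 1.

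Nitab4.5_0004482g0050, 447 bases long and from 177190 to 177636 on the plus strand of its scaffold, had 42 and 12.2 FPKM in C-WT, 2.58 and 2.78 in S-WT, 23.4 and 6.95 in C-OE2, and 38 and 16.3 in S-OE2. C-WT was 15.7-fold above S-WT in Experiment 1, the largest WT response of the 25 genes, and 4.29-fold above it in Experiment 2. The OE-2 libraries overlapped across experiments, with ratios of 1.62 and 2.32. Nitab4.5_0010884g0020, 864 bases long and from 55011 to 57201 on the plus strand of its scaffold, had 9.35 and 14.9 FPKM in C-WT, 5.56 and 4.45 in S-WT, 6.94 and 14 in C-OE2, and 13.2 and 21.2 in S-OE2. Its ratio in OE-2 in Experiment 2 was 1.51, next to the limit, and its OE-2 libraries overlapped across experiments.

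In the last 6 of the 19 genes, the S-OE2 libraries were not above all others and the S-WT libraries were not below all others. Nitab4.5_0000588g0280, 1870 bases long and from 835542 to 841486 on the plus strand of its scaffold, had 62.6 and 27.6 FPKM in C-WT, 25.5 and 17.4 in S-WT, 26.9 and 21.8 in C-OE2, and 49.1 and 33.4 in S-OE2. Its highest library was C-WT of Experiment 1, and S-OE2 did not exceed it. Nitab4.5_0000754g0260, 2185 bases long and from 644366 to 648591 on the plus strand of its scaffold, had 30.5 and 16.6 FPKM in C-WT, 17.8 and 9.67 in S-WT, 18.5 and 13.8 in C-OE2, and 54.8 and 28.3 in S-OE2. The ratios of this gene varied least in WT, at 0.586 in Experiment 1 and 0.585 in Experiment 2, and were 2.95 and 2.05 in OE-2. Nitab4.5_0000037g0370, 189 bases long and from 2566978 to 2567185 on the plus strand of its scaffold, had 189.5 and 118 FPKM in C-WT, 103 and 23.3 in S-WT, 69.9 and 40.1 in C-OE2, and 153 and 71.6 in S-OE2. It was the single gene of the 19 whose S-WT and S-OE2 libraries overlapped, and S-OE2 stayed below C-WT in both experiments.

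Nitab4.5_0000356g0100, 1554 bases long and from 995734 to 999285 on the minus strand of its scaffold, differed from the other 18 genes in the order of the genotypes under salt stress. It had 12.2 and 12.1 FPKM in C-WT, 3.72 and 3.53 in S-WT, 0.742 and 0.618 in C-OE2, and 1.44 and 1.46 in S-OE2. OE-2 was below WT under both conditions, 14.6-fold and 17.0-fold in control and 2.47-fold and 2.32-fold under salt stress, and the 2 experiments gave similar levels in each group. The ratios of 0.311 and 0.296 in WT and 1.83 and 2.18 in OE-2 thus brought the genotypes closer together without crossing. Its OE-2 values rest on few reads, with 15 counts in the lowest library.

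Nitab4.5_0001472g0090, 1476 bases long and from 500964 to 503770 on the plus strand of its scaffold, had 5.47 and 2.15 FPKM in C-WT, 2.92 and 0.191 in S-WT, 2.24 and 0.217 in C-OE2, and 9.59 and 3.57 in S-OE2. Every group was lower in Experiment 2, and the S-WT and C-OE2 libraries of that experiment were near the bottom of the range, with 5 counts in the lowest. Its fitted difference between the salt responses was 4.65 on the log2 scale with a standard error of 0.83, and ran from 3.79 to 6.02 over the alternative fits. Nitab4.5_0000628g0130, 1509 bases long and from 604543 to 606382 on the minus strand of its scaffold, had 3.76 and 0.165 FPKM in C-WT, 1.37 and 0.0749 in S-WT, 3.0 and 0.424 in C-OE2, and 7.0 and 1.96 in S-OE2. It rested on 2 counts in S-WT of Experiment 2. The ratio in WT in that experiment was 0.660 after 0.1 FPKM had been added. The exact 95% counting interval, which comes from the counts without this addition, ran from 0.0411 to 3.17, so that a lower level was not detectable at this depth.

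**Figure D3:**
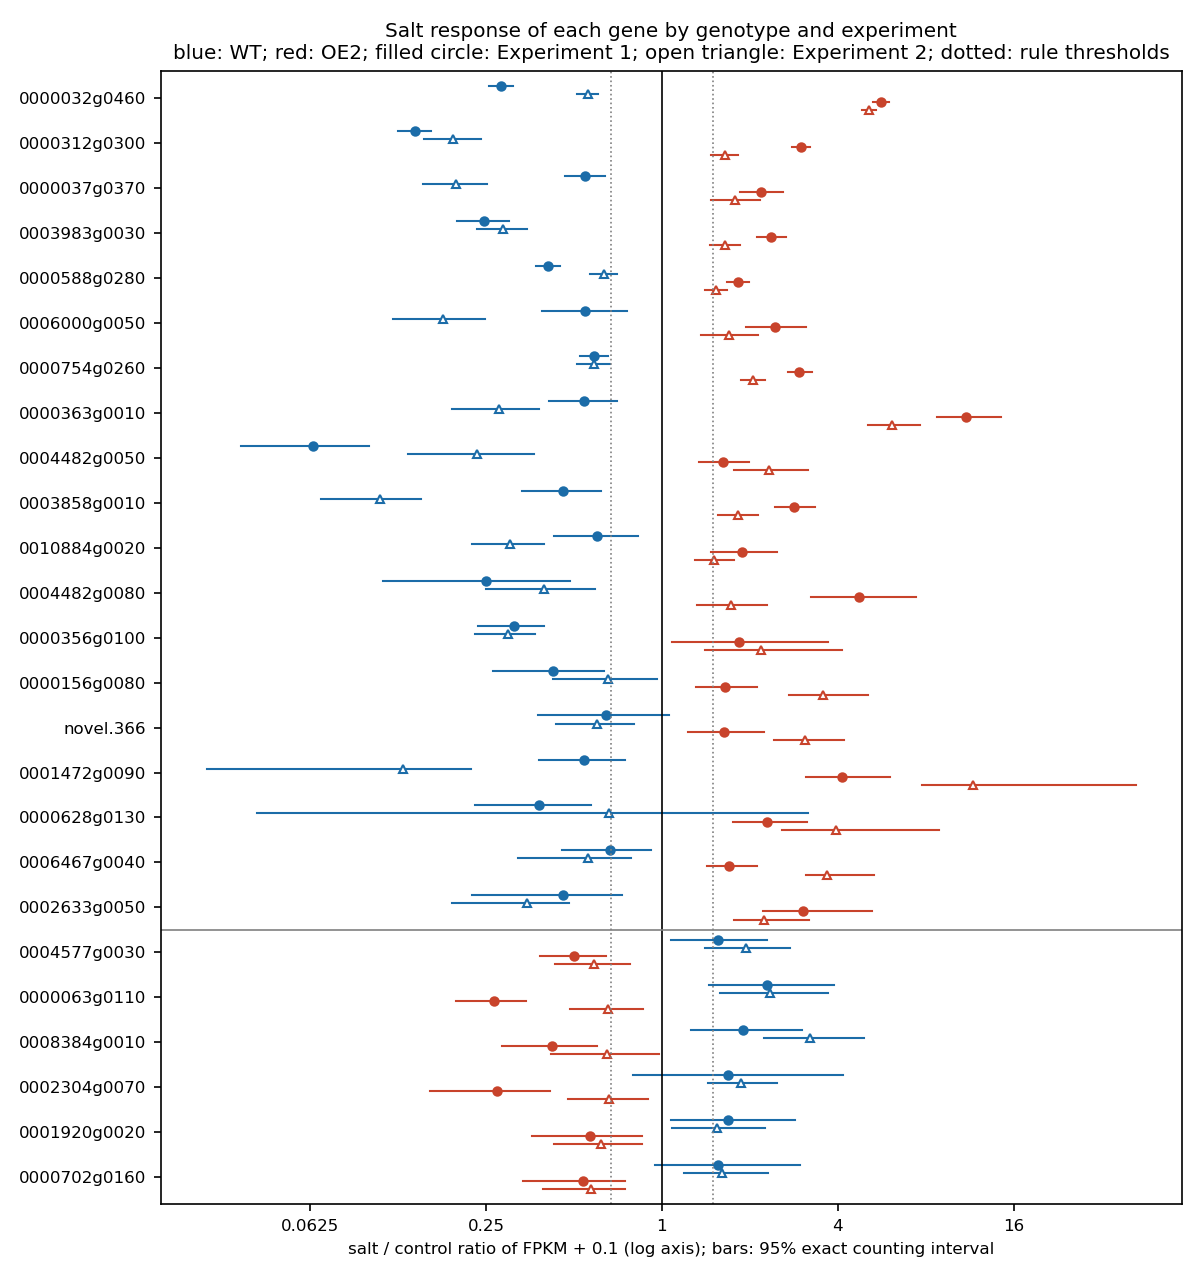
Ratio of salt to control (FPKM + 0.1, log axis) of each of the 25 genes in WT (blue) and OE-2 (red), with Experiment 1 as filled circles, Experiment 2 as open triangles, bars as exact 95% counting intervals and dotted lines at 0.67 and 1.5. The intervals come from the counts without the added 0.1, so they are not centred on the points of genes with low levels. In 2 of the 19 upper genes and in 2 of the 6 lower genes, 1 WT interval spans 1, while all intervals of OE-2 lie on one side of it.

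The 6 genes of the reverse pattern were all of low level, with means of 1.16 to 8.93 FPKM. In Nitab4.5_0001920g0020, 1046 bases long and from 99413 to 104513 on the plus strand of its scaffold, the order of the libraries was complete, with both S-WT libraries above and both S-OE2 libraries below all others. It had 2.51 and 2.91 FPKM in C-WT, 4.3 and 4.54 in S-WT, 3.31 and 3.84 in C-OE2, and 1.83 and 2.33 in S-OE2, and ratios of 1.69 and 1.54 in WT and 0.567 and 0.617 in OE-2. Nitab4.5_0008384g0010, 672 bases long and from 87237 to 87908 on the minus strand of its scaffold, had 4.71 and 3.24 FPKM in C-WT, 9.05 and 10.6 in S-WT, 7.78 and 3.88 in C-OE2, and 3.22 and 2.49 in S-OE2. It showed the same complete order, and S-WT was 2.76-fold and 4.13-fold above S-OE2. Nitab4.5_0000063g0110, 891 bases long and from 670774 to 672867 on the minus strand of its scaffold, had 2.7 and 2.3 FPKM in C-WT, 6.28 and 5.52 in S-WT, 14.2 and 6.31 in C-OE2, and 3.71 and 4.09 in S-OE2. Here C-OE2 was the highest group and C-WT the lowest, and both salt groups lay between them.

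Nitab4.5_0004577g0030, 624 bases long and from 182594 to 183792 on the minus strand of its scaffold, had 7.0 and 5.38 FPKM in C-WT, 10.9 and 10.5 in S-WT, 15.4 and 9.23 in C-OE2, and 7.65 and 5.35 in S-OE2. Its S-WT and S-OE2 libraries did not overlap, and C-OE2 was above C-WT in both experiments. Nitab4.5_0000702g0160, 3120 bases long and from 757830 to 766751 on the minus strand of its scaffold, had 0.63 and 1.2 FPKM in C-WT, 1.03 and 1.97 in S-WT, 1.33 and 1.57 in C-OE2, and 0.667 and 0.851 in S-OE2. The C-WT and S-WT libraries overlapped, and the WT ratio of 1.55 in Experiment 1 had a counting interval from 0.945 to 2.97. Nitab4.5_0002304g0070, 795 bases long and from 288380 to 289464 on the minus strand of its scaffold, had 1.24 and 6.5 FPKM in C-WT, 2.14 and 12.2 in S-WT, 5.7 and 5.92 in C-OE2, and 1.49 and 3.88 in S-OE2. Its WT libraries in Experiment 2 were several-fold above those in Experiment 1, and neither the WT libraries nor the salt libraries of the 2 genotypes were apart. The WT ratio of 1.68 in Experiment 1 rested on 9 counts in C-WT, with an interval from 0.795 to 4.17. In all 6 genes the response of OE-2 was stronger in Experiment 1 than in Experiment 2.

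Each ratio of salt to control was set beside an exact 95% interval from the 2 counts, which covers counting error only and not the variation between plants. The interval belongs to the ratio without the added 0.1 FPKM, which differs from the printed ratio in genes with low levels. For the 19 genes, the interval included 1 for 2 of 38 ratios in WT and for 0 of 38 in OE-2. One was that of Nitab4.5_0000628g0130 above, and the other was the assembled gene model on scaffold Nitab4.5_0000125 in Experiment 1, at 0.643 with an interval from 0.376 to 1.05. For the 6 genes it included 1 for 2 of 12 ratios in WT and for 0 of 12 in OE-2. The rule asked for ratios below 0.67 or above 1.5, which largely fixes that an interval excludes 1, so these counts show the depth behind the ratios and support nothing about the genes. Low counts were common among the members. Only 7 of the 25 (28%), all of them lower in WT and higher in OE-2, had 50 counts or more in all 8 libraries, against 71.7% of the genes past the limits.

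The order of the genotypes was then compared within each condition. Under control conditions, C-OE2 was below C-WT in both experiments for 14 of the 19 genes and above it in both for 0, and the order differed between experiments for 5. Under salt stress, S-OE2 was above S-WT in both experiments for 18 of 19, the exception being Nitab4.5_0000356g0100. The order of the genotypes therefore turned over from control to salt in both experiments for 13 genes. The median ratio of OE-2 to WT was 0.664 and 0.692 in control and 4.43 and 4.5 under salt stress. S-OE2 also exceeded C-WT in both experiments in 14 of the 19 genes. The control libraries enter both the ratios that chose the genes and these comparisons, so these counts are not independent of the rule. A low ratio in WT favours a high C-WT value, and a high ratio in OE-2 favours a low C-OE2 value. The shares of all genes with these orders were not counted, so nothing is read from the counts.

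In the 6 genes of the reverse pattern, C-OE2 was above C-WT in both experiments for 5, and for Nitab4.5_0002304g0070 the order differed between experiments. S-OE2 was below S-WT in both experiments for 6 of 6. The median ratio of OE-2 to WT was 2.07 and 1.3 in control and 0.637 and 0.487 under salt stress. The rule favours these orders in the same way, and their shares over all genes were not counted either. In the plot of the genotype ratios, arrows of both patterns cross the line of equal levels for most genes.

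**Figure D4:**
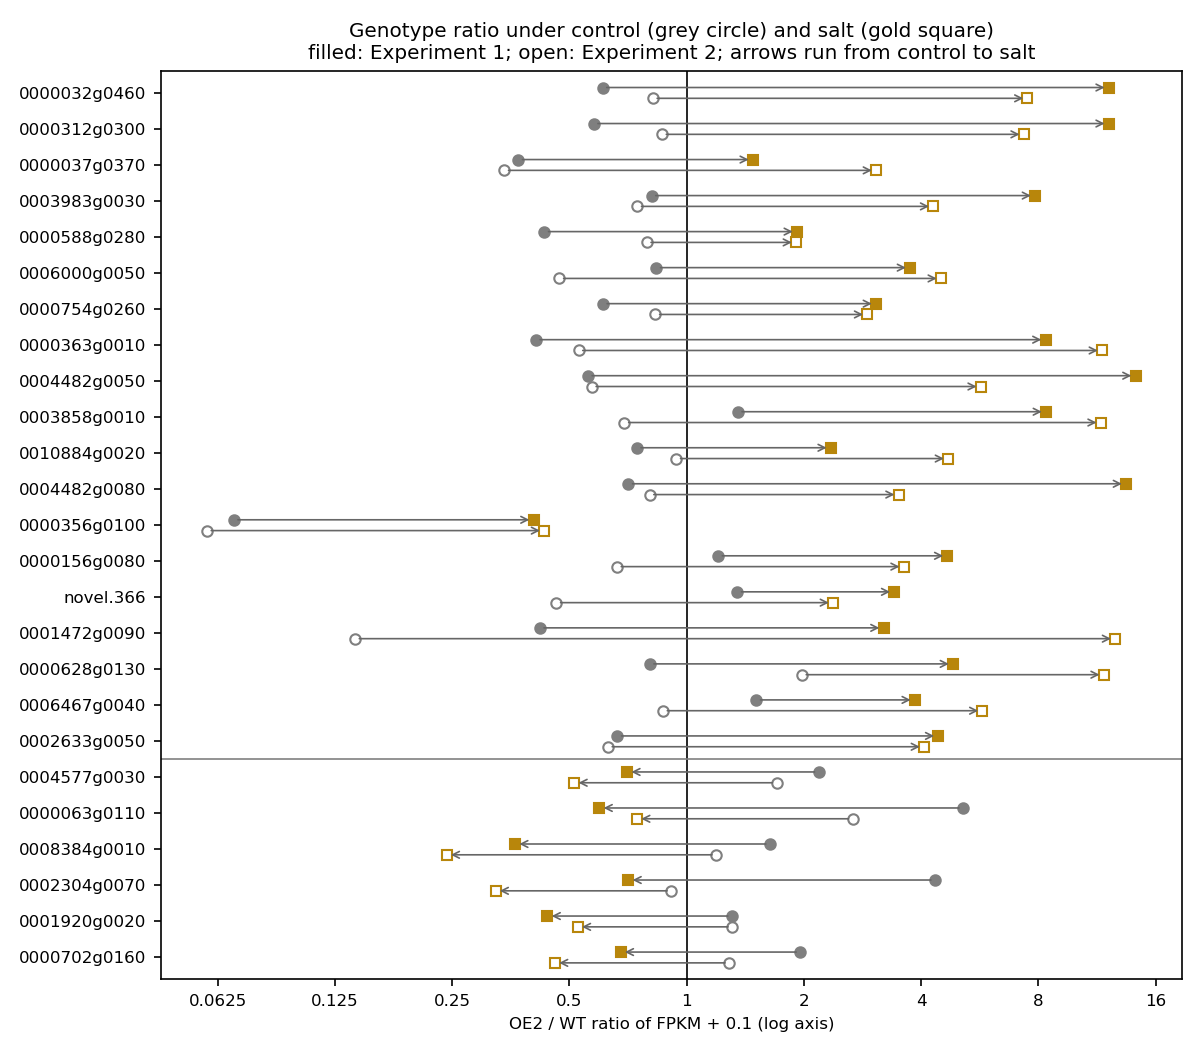
Ratio of OE-2 to WT (FPKM + 0.1, log axis) for each of the 25 genes under control conditions (grey circles) and salt stress (gold squares), filled for Experiment 1 and open for Experiment 2, with arrows from control to salt. In both experiments the arrows cross the line at 1 from left to right for 13 of the 19 upper genes and from right to left for 5 of the 6 lower genes, and Nitab4.5_0000356g0100 stays left of the line.

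How often a gene chosen in one experiment met the same ratios in the other was counted over 29014 genes past all limits and exclusions. The genes that did so in both are the members themselves, by the rule, so these shares describe how many genes the second experiment removed and give no support for the members. Of 250 genes lower in WT and higher in OE-2 in Experiment 1, 19 (7.60%, exact 95% interval 4.64% to 11.6%) met these ratios in Experiment 2, against 0.979% of all genes. The reverse pattern was met by 3 (1.20%), against 0.403% of all genes. Of 284 such genes in Experiment 2, 19 (6.69%, 4.08% to 10.3%) met the ratios in Experiment 1, against 0.862% of all genes. The reverse ones were met by 12 (4.23%), against 1.36% of all genes. Most genes chosen in a single experiment did not meet the ratios in the other, although matching signs in both genotypes were shown by 30.4% and 25.7% of them, members included, beside 15.8% of all genes in both cases. The intervals treat genes as separate draws, which they are not, and no p was computed.

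For the reverse pattern, the members are again the genes that met the ratios in both experiments. Of 394 genes higher in WT and lower in OE-2 in Experiment 1, 6 (1.52%, 0.561% to 3.28%) met the ratios in Experiment 2, against 0.403% of all genes. The opposite ones were met by 12 (3.05%), against 0.979% of all genes. Of 117 such genes in Experiment 2, 6 (5.13%, 1.90% to 10.8%) met the ratios in Experiment 1, against 1.36% of all genes. The opposite ones were met by 3 (2.56%), against 0.862% of all genes. Genes with the same signs in the other experiment were about as frequent (20.3% and 19.7%) as among all genes (20.4% and 18.5%). More genes of Experiment 1 turned over in Experiment 2 than kept the pattern. The opposite pattern was also the more frequent among all genes there (0.979% against 0.403%).

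**Figure D5:**
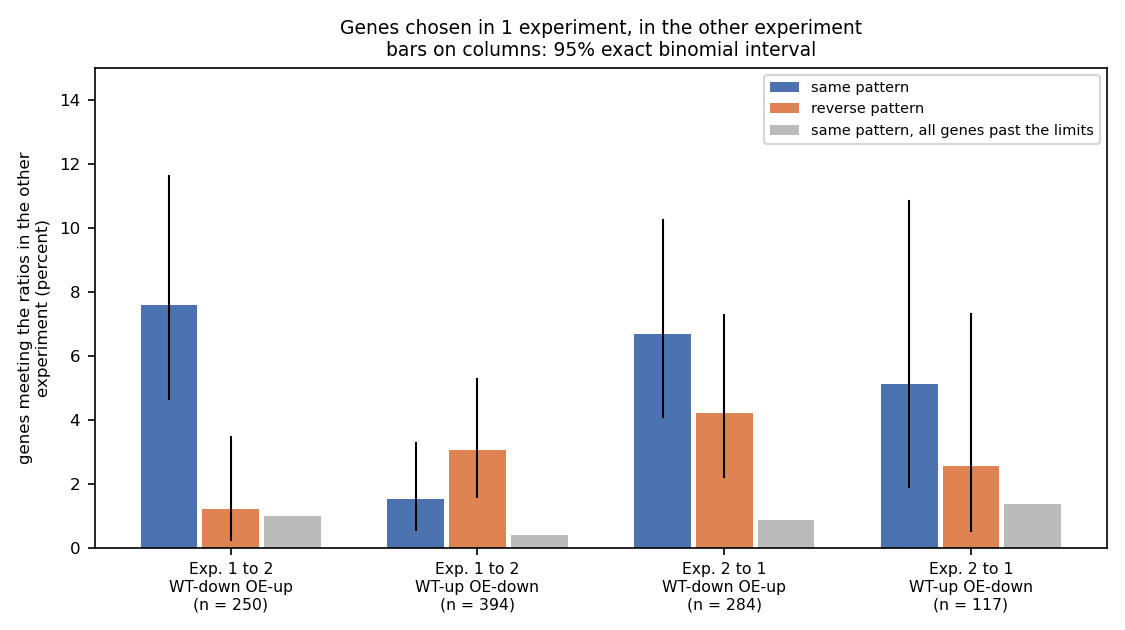
Percent of the genes that met the ratios in one experiment that met the same pattern (blue) or the reverse pattern (orange) in the other, with exact 95% binomial intervals, beside the percent of all 29014 genes that met the same pattern there (grey). The blue columns stand at 7.60% and 6.69% for genes lower in WT and higher in OE-2, and at 1.52% and 5.13% for the reverse pattern, where the orange column of the first direction is higher at 3.05%. Among all genes, the pattern of that orange column was met by 0.979%, and that of the blue column beside it by 0.403%.

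The ratios that chose the genes were taken within an experiment, so they did not use the difference in level between experiments. The count limit did not separate the experiments, so a gene could pass it mainly where its level was high. Nitab4.5_0000628g0130 had 34 to 259 counts in the libraries of Experiment 1 and 2 to 69 in those of Experiment 2. Nitab4.5_0002304g0070 had 9 to 59 and 72 to 172. The calls between experiments are thus not fully independent of the rule, and the effect of the limit on them was not tested. By edgeR's quasi-likelihood test, with p-values adjusted after Benjamini and Hochberg over 44564 genes, 9 of the 25 genes differed between experiments, against 13.8% of all genes tested. Of these, 8 were lower in Experiment 2 (7.42% of all genes) and 1 was higher (6.36%). Here and in the tests below, the 44564 genes tested are a wider set than the 29042 past the limits. They include genes with fewer counts, so these shares are not those of genes like the members. Nitab4.5_0000312g0300 was 3.76-fold higher in Experiment 1 (log2 change -1.91, SE 0.18, adjusted p = 4.33e-04). Nitab4.5_0000628g0130 was 7.60-fold higher there (adjusted p = 0.00336 by edgeR's test) and Nitab4.5_0001472g0090 was 4.52-fold higher (adjusted p = 0.0106 by edgeR's test). These 3 genes and Nitab4.5_0000037g0370 (2.25-fold, adjusted p = 0.0145 by edgeR's test) kept their call in all 11 alternative fits.

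The other calls between experiments depended on the fit. Nitab4.5_0000754g0260 (edgeR's adjusted p = 0.00914) lost its call with total-count scaling, where its adjusted p was 0.0667. Nitab4.5_0006467g0040 (0.0201 by edgeR's test) and Nitab4.5_0004482g0050 (0.0191) each lost it in 4 of 11 fits, and Nitab4.5_0000588g0280 (0.0324) lost it in 9. The first of these lost it without either C-OE2 or either S-WT library, and the second without any one of the 4 control libraries. Nitab4.5_0000588g0280 lost its call whichever single library was left out. Of the 6 genes of the reverse pattern, Nitab4.5_0002304g0070 was 2.82-fold higher in Experiment 2 (adjusted p = 0.0429 by edgeR's test) and lost its call without any one of the C-WT, S-WT and S-OE2 libraries.

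The fitted difference between the salt responses of the genotypes, on the log2 scale, had a median of 2.96 for the 19 genes (range 1.78 to 4.65) and of -1.90 for the 6 genes (range -2.50 to -1.44), beside -0.04 over all genes tested. By edgeR's test, 3 of the 25 genes were called in this difference, against 0.0157% of all genes, and all 3 were larger in OE-2 (0.0135% of all genes). They were Nitab4.5_0000032g0460 at 3.79 (SE 0.36), Nitab4.5_0000312g0300 at 3.81 (SE 0.36) and Nitab4.5_0000363g0010 at 4.40 (SE 0.45). This contrast chose the genes, so the calls are counts and not a test of them. With all libraries, 7 genes of the whole table were called. Members and all genes called were both 0 without either C-OE2 library or without C-WT of Experiment 2. They were 2 and 5 without S-OE2 of Experiment 1, 5 and 89 without S-OE2 of Experiment 2, 5 and 30 without S-WT of Experiment 2, and 11 and 225 without S-WT of Experiment 1.

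In the separate comparisons, 2 of the 25 genes were called between C-WT and S-WT (0.0875% of all genes), namely Nitab4.5_0000312g0300 and Nitab4.5_0003983g0030, both lower in S-WT (0.0494% of all genes). This count was 0 without either C-WT library, either C-OE2 library or S-WT of Experiment 1, where 1 to 18 genes of the whole table were called against 39 with all libraries. It was 4 without S-WT of Experiment 2, with 223 genes called over the table, and 4 without either S-OE2 library, with 137. Between C-OE2 and S-OE2, 11 were called, all among the 19 and all higher in S-OE2, against 11.9% of all genes in either direction and 5.73% in this one. That count was 4 without C-OE2 of Experiment 1, and 6 without C-OE2 of Experiment 2 or without S-OE2 of Experiment 1, while the genes called over the table went from 5309 to 1274, 2419 and 2166.

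Between the genotypes, 1 gene was called in control (0.0359% of all genes), Nitab4.5_0000356g0100. It was lower in C-OE2 (0.0202% of all genes) and was not called without C-OE2 of Experiment 1, where 1 gene of the table was called against 16 with all libraries. Under salt stress, 18 of the 19 genes and 1 of the 6 were called (7.38% of all genes), the latter being Nitab4.5_0008384g0010. Of these, 17 were higher in S-OE2 (4.17% of all genes), and the other 2, Nitab4.5_0008384g0010 and Nitab4.5_0000356g0100, were lower (3.2%). Without S-WT or S-OE2 of Experiment 2 the number of members called was 11 and 12, while that over the table went from 3288 to 1618 and 2079. These contrasts use the libraries that chose the genes and are no independent support.

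Values next to the limits of the rule show how close other genes came. Just inside, Nitab4.5_0010884g0020 and Nitab4.5_0006467g0040 had a ratio of 1.51 in OE-2 and of 0.666 in WT as their nearest. Just outside, Nitab4.5_0000463g0080 had WT ratios of 0.677 and 0.660 with OE-2 ratios of 1.59 and 1.64. Nitab4.5_0004161g0080 had 0.677 and 0.239 in WT and 5.34 and 1.90 in OE-2. For the reverse pattern, Nitab4.5_0001920g0020 (nearest ratio 1.54 in WT) and Nitab4.5_0002304g0070 (0.661 in OE-2) were just inside. Just outside were a second gene model of the authors' assembly, with 2.02 and 1.49 in WT and 0.554 and 0.578 in OE-2, and Nitab4.5_0007792g0030, with 1.5 and 1.68 in WT and 0.667 and 0.703 in OE-2.

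Membership also depended on how the levels were scaled. With TMM-scaled counts divided by gene length in place of FPKM, 15 of the 19 genes and 3 of the 6 met the ratios again. The 4 that did not were Nitab4.5_0006467g0040, Nitab4.5_0000628g0130, Nitab4.5_0000156g0080 and the assembled gene model, and the 3 of the reverse pattern that did were Nitab4.5_0000702g0160, Nitab4.5_0001920g0020 and Nitab4.5_0004577g0030. With scaling to total counts, 7 of the 19 and 0 of the 6 met them. Relative to the FPKM values, total-count scaling raised the median log2 ratio of salt to control over all genes past the limits. The rise was 0.32 and 0.32 in WT and 0.64 and 0.49 in OE-2. TMM scaling raised it by 0.05 to 0.10. Nitab4.5_0000312g0300 and Nitab4.5_0003983g0030 met the ratios under both scalings, with 1 FPKM added in place of 0.1, and with 50 counts required in all 8 libraries.

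The 25 genes lay on 24 scaffolds. The exceptions were Nitab4.5_0004482g0080 and Nitab4.5_0004482g0050, which are neighbours 6754 bases apart on opposite strands, with 0 genes between them on a scaffold of 8 genes. Both are 447 bases long and consist of 1 unbroken block. Whether they are near-identical copies, and how reads that fit both were counted, is not given in the sources used here, so their values may not be independent of each other. Of 38 genes next to a member, 2 were these members and 10 others passed the limits. Among the 10, Nitab4.5_0000037g0360 moved in the same 4 directions as its neighbour Nitab4.5_0000037g0370, whereas 3.77% of all genes past the limits moved in the 4 directions of that pattern. Of the neighbours not past the limits, Nitab4.5_0000032g0480, Nitab4.5_0003983g0070 and Nitab4.5_0001920g0030 also moved in the 4 directions of the member beside them. The rest of these did not, and the share among all genes not past the limits was not counted.

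As gene models, the members were shorter than the genes past the limits, with a median length of 891 against 1272 bases, and had a similar median level of 8.93 against 9.80 FPKM. A single unbroken block made up 6 of the 25 (24.0%), against 10.1% of the genes past the limits. These 6 were Nitab4.5_0000032g0460, Nitab4.5_0000312g0300, Nitab4.5_0003983g0030, the 2 neighbours on scaffold Nitab4.5_0004482 and Nitab4.5_0008384g0010. One member (4.00%) came from the authors' own assembly, against 8.71% of the genes past the limits.

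Of the 28 genes that the study names with identifiers, 0 met the ratios of either pattern in both experiments. All 12 photosynthesis genes were below 0.67 of control in OE-2 in both experiments, and all were lower in WT in both as well, 5 of them by that limit. Of the 12 defense genes, 11 were above 1.5 in OE-2 in both experiments, and in WT 2 were above 1.5 and 0 below 0.67 in both. In Experiment 2 alone, *PR1a*, *PR1b*, *PR1c*, *PR-R* major, *RIN4* and *CAT1* were below 0.67 in WT and above 1.5 in OE-2. Their WT ratios there were 0.340, 0.0998, 0.290, 0.396, 0.403 and 0.570. In Experiment 1, all of these but *CAT1* (0.715) were above 1.5 in WT, from 3.71 to 5361. There *PR1a*, *PR1b* and *PR1c* had 0 FPKM in C-WT, so the size of their WT ratios depends on the added 0.1. The other defense genes met neither limit or were above 1.5 in WT in Experiment 2. The WT levels of *PR1b* and *PR1c* in Experiment 2 were below 1 FPKM. Of the 4 cation transporter and channel genes, 3 were above 1.5 and 1 below 0.67 in OE-2, and 1 was above and 1 below in WT. Since most of them were picked by the study from these libraries, their directions are not independent of it.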

How the data were processed

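RNA-seq of 8 leaf libraries was used (4 groups, 1 library per group and experiment). According to the methods and processing notes, the authors aligned reads with HISAT2 2.0.5, assembled further genes with StringTie 1.3.3b (11878 of 81378) and counted reads with featureCounts 1.5.0-p3 on the Nitab-v4.5 assembly. The authors deposited raw counts and FPKM values per gene in one table, which also pairs each gene with a position and length. The FPKM values equal the counts divided by length and by one denominator per library, 49.0% to 97.6% of the total count. With Experiment 1 first, this share was 49.0% and 62.7% in C-WT, and 61.6% and 78.3% in S-WT. It was 52.4% and 69.1% in C-OE2, and 82.8% and 97.6% in S-OE2. The scaling thus differed between control and salt in the ratios that chose the genes, most of all in OE-2. The counting of reads with more than one matching gene is not given in the sources used here. The table has 0 columns of samples outside the series.

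The rule was applied to the FPKM values. Members and lists were chosen with earlier results of these data known, and all members were named because there were 30 or fewer. Counts were tested in R 4.3.3 with edgeR 4.0.16 and limma 3.58.1 (filterByExpr, TMM scaling, quasi-likelihood test, group and experiment as terms, Benjamini-Hochberg adjustment over 44564 genes, threshold 0.05). Standard errors are the absolute log2 change divided by the square root of F. The biological coefficient of variation was 24.2%. With 2 libraries a group, each a pool of 4 plants, the p-values rest on how far the differences between groups varied between the 2 experiments, once their mean difference was removed. The experiment number pairs the libraries, because the study made its comparisons within each of 2 independent experiments. Deviations from the group means were also correlated between libraries that shared an experiment, at 0.383 to 0.517 across genes over the 6 pairs of groups. Intervals of ratios and shares are exact at 95% and cover counting error only. Alternatives were DESeq2 1.42.0, no filter, no term for the experiment, total-count scaling, leaving out each library in turn, and other settings of the rule. The scripts were tested on simulated data.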

Additional observations from a re-analysis of the deposited data

Results flagged for a closer look

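Every WT pair of libraries moved one way and every OE-2 pair the other in both gene groups. This is what the rule asked for, so the difference is a description and was not tested on other libraries. The fitted difference between the salt responses of OE-2 and WT had a median of 2.96 on the log2 scale for the 19 genes lower in WT and higher in OE-2, and of -1.90 for the 6 genes of the reverse pattern.

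In 3 genes the difference between genotypes passed edgeR's quasi-likelihood test with adjustment over all genes. It was 3.79 for Nitab4.5_0000032g0460 (3.43 to 4.18 over the alternative fits), 3.81 for Nitab4.5_0000312g0300 (3.48 to 4.16) and 4.40 for Nitab4.5_0000363g0010 (4.02 to 4.93). All 3 had the direction in both experiments, but the same libraries chose them.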

How the results depend on the processing

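The number of genes lower in WT and higher in OE-2 was 12 with 1 FPKM added, 1 with ratios of 2 and 0.5, 7 with 50 counts in all 8 libraries, 151 with no count limit and 11 with total-count scaling, and of the reverse pattern 0, 0, 0, 142 and 5. For the reverse pattern, the share of genes of one experiment that met the ratios in the other was 0% in both directions with 1 FPKM added and with 50 counts in all 8 libraries. Total-count scaling gave median differences between the salt responses of 3.18 and -1.68, and leaving out 1 library gave 2.63 to 3.12 and -2.27 to -1.44.

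The number of the 25 genes called is followed here, in brackets, by the number called over the whole table. The difference was called for 18 (820) with DESeq2, 16 (357) with no filter, 7 (42) with total-count scaling and 0 (0) with no replicate block, against 3 (7) in the reported fit, and for 0 to 11 (0 to 225) with 1 library left out. Between C-WT and S-WT the counts were 10 (590), 7 (323), 1 (48) and 0 (0), against 2 (39), and 0 to 4 (1 to 223) with 1 library left out. Between C-OE2 and S-OE2 they were 18 (6294) with no filter, 19 (9775) with total-count scaling and 2 (263) with no replicate block, against 11 (5309), and 4 to 15 (1274 to 5587) with 1 library left out. Between C-WT and C-OE2 they were 3 (243) with DESeq2 and 2 (236) with no filter, against 1 (16), and 0 to 1 (1 to 114) with 1 library left out. Between S-WT and S-OE2 the count was 0 (5) with no replicate block, against 19 (3288), and 11 to 19 (1101 to 3193) with 1 library left out. The comparison of experiments cannot be made without the block. It gave 11 (7480) with DESeq2, 9 (7345) with no filter and 9 (11277) with total-count scaling, against 9 (6140). Over the 25 genes and all alternative fits, 243 fitted differences kept both direction and call, 44 gained a call, 13 lost one and 0 changed direction.

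The limits are 2 experiments, 1 transgenic line, low counts in most members, and FPKM values whose scaling decides membership for part of the genes. The cause of these changes was not tested.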
